A study of Mus musculus with 16 samples.

Results

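The RNA of 10 genes of nicotinamide and NAD metabolism was followed through mouse liver at 2 ages, before and after the carcinogen diethylnitrosamine (DEN). They are Nnmt, Nampt, Nmnat1, Nadk, Sirt1, Sirt3, Qprt, Haao, Tdo2 and Acmsd, 10 of the 47729 genes in the count table, and they were chosen by the counts of Nnmt, which were higher on day 6 than on day 2 after DEN in the livers of 1-month-old mice. That contrast, in which 0.00638% of all genes were called, is therefore described without a test for any of the 10 genes. For Nnmt the same holds in every comparison that includes those day 2 or day 6 libraries. All 10 genes passed the filter on low counts.

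RNA came from the livers of wild type C57BL/6 male mice that were either untreated or injected intraperitoneally with DEN. At each age there were 2 libraries of untreated controls, 3 libraries from day 2 and 3 libraries from day 6 after injection, 16 libraries in all. Since each library pooled the RNA of 3 mice in equal parts, every SD below is one between pools and not between animals. The dose was 25 mg per kg of body weight in the sample labels and 25 mg per g in the methods. The younger mice are called 1-month-old in the protocol and 3 to 4 weeks old in the sample labels, and the older mice were 6 months old. Control livers were taken at time 0 only, so that in the younger mice the effect of DEN and that of a few days of growth cannot be told apart. Libraries held 19039330 to 34459774 counts, and the 12 hepatocyte markers summed to 56210 to 92140 CPM in them. Levels are CPM, counts scaled to library size after TMM normalization, and a difference was called at an adjusted p under 0.1 in the quasi-likelihood test of edgeR, with Benjamini-Hochberg correction over the 15684 genes tested. SE stands for the standard error of a log2 fold change.

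NAD is the electron carrier of oxidative metabolism and the substrate consumed by sirtuins and by poly(ADP-ribose) polymerases, among them the enzymes that respond to DNA breaks. Liver can build NAD de novo from tryptophan, through TDO2, HAAO and QPRT, with ACMSD drawing an intermediate away towards oxidation. Cells also recycle nicotinamide to NAD through NAMPT and the NMNAT enzymes, and NNMT removes nicotinamide by methylating it with S-adenosylmethionine.

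Tdo2, which encodes the tryptophan dioxygenase that opens the de novo route, had by far the highest level of the 10 genes, at 407 to 724 CPM per kb of exon over the 16 libraries. The next were Haao at 70.4 to 108 CPM per kb, Qprt at 67.3 to 88.6 CPM per kb and Nadk, the cytosolic NAD kinase that makes NADP, at 55.0 to 83.5 CPM per kb. These last 3 ranges overlap. Nnmt spanned 20.4 to 73.5 CPM per kb and Nampt 12.7 to 52.5 CPM per kb, with Nnmt above Nampt in 13 of 16 libraries. Sirt3, a mitochondrial deacylase, lay at 9.89 to 16.02 CPM per kb and Acmsd at 5.49 to 15.4 CPM per kb. Nmnat1, the nuclear enzyme that joins nicotinamide mononucleotide to AMP, was at 4.95 to 7.33 CPM per kb, and Sirt1, a nuclear deacetylase, was lowest in every library at 2.08 to 3.51 CPM per kb. Apart from Tdo2 above Haao and Nmnat1 above Sirt1, every pair of neighbours in this order had overlapping ranges.

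**Figure D1:**
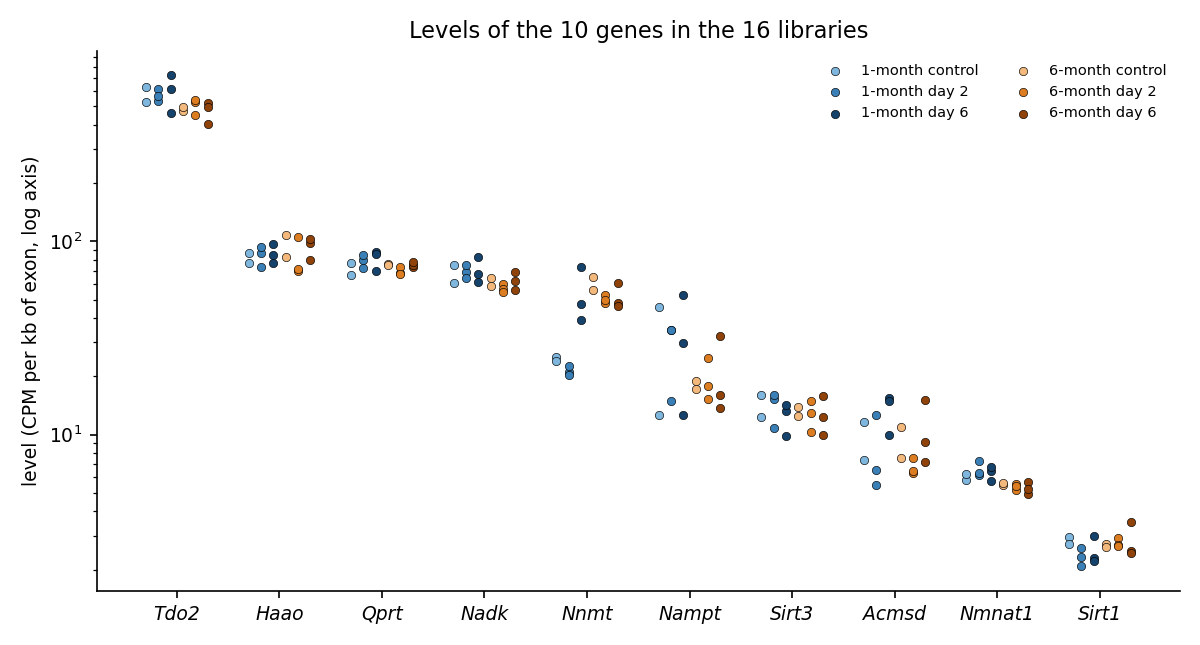
Level of each gene in CPM per kb of exon (vertical, log axis) with 1 point per library, coloured by group and ordered by mean level. Tdo2 at 407 to 724 CPM per kb stands apart above and Sirt1 at 2.08 to 3.51 CPM per kb below, and Nnmt forms a low cluster in the 1-month control and day 2 libraries.

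The genes differed in how much they varied. The ratio of the highest to the lowest library was 4.14 for Nampt, 3.60 for Nnmt and 2.80 for Acmsd on the CPM scale, and it was 1.31 to 1.78 for the other 7 genes. For Nnmt the variation lay between groups, which held 90.3% of its variance in log2 CPM over the libraries. For Nampt they held 13.3%, and its libraries differed inside nearly every group. Nmnat1 varied little, but 72.4% of its variance lay between groups. The median of all genes tested was 37.7%, with which the share of Nnmt cannot be compared, since Nnmt was chosen for a difference between 2 of the groups. Libraries shared their groups and their pools, and these shares are a description without a test.

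Nnmt encodes nicotinamide N-methyltransferase, a cytosolic enzyme abundant in liver, and its gene lies on the minus strand of chromosome 9 of GRCm38, from 48591877 to 48605153. In untreated livers it was at 39.9 and 37.9 CPM at 1 month and at 103 and 88.8 CPM at 6 months. All older libraries were thus above all younger ones, at 95.8 ± 9.92 CPM (SD, n = 2) against 38.9 ± 1.46 CPM (SD, n = 2). In this comparison the groups of 43.1% of all genes tested did not overlap. Nnmt was 2.46-fold higher at 6 months, on the log2 scale 1.30 (SE 0.228, 95% confidence interval 0.81 to 1.79, edgeR adjusted p = 0.0112). It was 1 of 10 genes called in this comparison, where 2.67% of all genes tested were called in either direction and 12.6% had an unadjusted p under 0.05. Without 1-month control replicate 2 the log2 fold change was 1.26 and the adjusted p 0.126, so that the call was lost, whereas it was kept without any other single library, and over all 23 alternatives the adjusted p ran from 2.76e-05 to 0.126.

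Several marker lists differed in level between the ages in the same control libraries. Of all genes tested, 2.67% were called there, 12.6% had an unadjusted p under 0.05 and 43.1% had groups without overlap. Hepatocyte markers summed to 74100 to 90080 CPM at 1 month and 62300 to 62810 CPM at 6 months, and 1 of 12 was called lower. The 7 adipocyte markers, of which Lep was at 0 in every library, summed to 8.60 to 14.96 CPM at 1 month and 23.9 to 28.7 CPM at 6 months, with 1 of the 3 tested called higher. Lymphocyte markers summed to 6.42 to 7.21 CPM at 1 month and 14.1 to 15.2 CPM at 6 months, with 2 of 9 called higher. Neutrophil markers summed to 5.40 to 6.67 CPM at 1 month and 9.33 to 12.19 CPM at 6 months, with 0 of the 4 tested called, and erythroid markers to 430.5 to 704.5 CPM and 325 to 328 CPM, with 0 of 6 called and 5 of 6 at an unadjusted p under 0.05. Macrophage markers overlapped in sum, at 463 to 776 CPM and 742 to 941 CPM, and 9 of 10 had a positive log2 fold change, with 0 called and 5 of 10 at an unadjusted p under 0.05. The sum of stellate cell markers was 503 to 524 CPM at 1 month and 328 to 403 CPM at 6 months, and 3 of 11 were called lower, but 6 of the 11 had a positive log2 fold change and the median over the list was 0.05. Sinusoidal endothelium markers summed to 309.8 to 396.3 CPM at 1 month and 240.7 to 309.5 CPM at 6 months. Of these 8 markers 0 were called, 3 had an unadjusted p under 0.05 and 1 had a positive log2 fold change. Cholangiocyte markers overlapped in sum, at 39.9 to 66.0 CPM and 53.1 to 71.2 CPM, with 0 of the 6 tested called. The part of these marker lists in the difference of Nnmt was not tested. In a whole tissue, fewer cells of a type and less RNA per cell cannot be told apart.

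After DEN the level of Nnmt in 1-month-old livers was 33.2, 35.7 and 32.2 CPM on day 2 and 116, 62.0 and 74.8 CPM on day 6. The day 2 libraries lay close together and below both young controls, whereas the day 6 libraries lay above all of them and were widely spread, at 84.2 ± 28.1 CPM (SD, n = 3). Of all genes tested, 16.7% had groups without overlap between day 2 and control, 14.4% between day 6 and control and 6.84% between the days. Fitted values gave a log2 fold change of 1.32 for day 6 against day 2, of -0.21 for day 2 against control and of 1.11 for day 6 against control, none of which is tested here. The lowest day 6 library, at 62.0 CPM, was above the highest of the 5 younger libraries without or shortly after DEN, at 39.9 CPM. Within day 6 the library at 116 CPM had the highest and that at 62.0 CPM the lowest score of clock genes, which is described with Nampt, and the part of the clock in this spread was not tested.

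In 6-month-old livers Nnmt was at 82.7, 75.8 and 78.7 CPM on day 2 and at 95.8, 75.7 and 72.9 CPM on day 6. The highest day 2 library lay below both older controls, and day 6 libraries overlapped with them. Between day 2 and control 21.9% of all genes tested had groups without overlap. Neither day passed the test, with a log2 fold change of -0.28 on day 2 (95% confidence interval -0.71 to 0.16, edgeR adjusted p = 1.0) and of -0.23 on day 6 (-0.67 to 0.20, edgeR adjusted p = 1.0). Between the days the log2 fold change was 0.04 (-0.35 to 0.43), and the difference between the ages in this change is not tested for Nnmt. Ordered by mean, the 6-month control, 1-month day 6, 6-month day 6 and 6-month day 2 groups formed a run of neighbours with overlapping ranges, well apart from the 1-month control and 1-month day 2 groups. On day 2 the fitted log2 difference between 6-month-old and 1-month-old livers was 1.23, close to that of the controls, and on day 6 it was -0.05, with overlapping libraries.

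**Figure D2:**
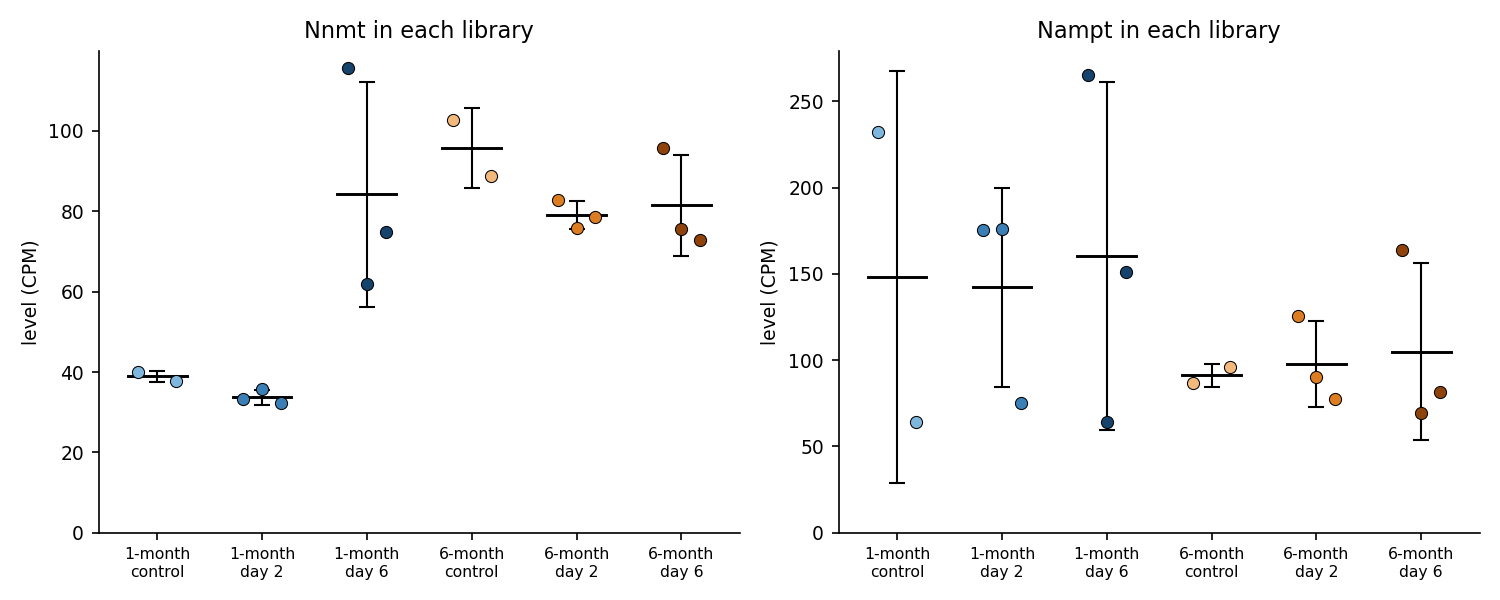
Level in CPM (vertical, from 0) of Nnmt and Nampt in each library (points) by group, with the group mean (horizontal bar) and SD (whiskers). Nnmt is at 32.2 to 39.9 CPM in 1-month control and day 2 libraries and at 62.0 CPM or more elsewhere, and Nampt spans 64.0 to 265 CPM with wide spread inside the 1-month groups.

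The other 9 genes gave no call in any of the comparisons in which they were tested. Against controls of the same age, 0 of 9 were called on day 2 (background 0.0191%) and 0 of 9 on day 6 (background 0.00%) in 1-month-old livers, and 0 of 10 with Nnmt on day 2 (background 0.319%) and on day 6 (background 0.249%) in 6-month-old livers. DESeq2 also called 0 in each of these comparisons, and in edgeR's test 0 members had an unadjusted p under 0.05 in any of the 4, where 7.16%, 2.72%, 4.01% and 2.99% of all genes did, in the same order. With so few genes called anywhere in the table, 0 of 9 or 10 is close to the background. The test of the difference between the ages in the response to DEN gave 0 of 9 on day 2 (background 0.00638%) and 0 of 9 on day 6 (background 0.0128%), again with 0 calls by DESeq2 and 0 members at an unadjusted p under 0.05 (4.46% and 1.91% of all genes). In 6-month-old livers 0 of 10 were called between day 6 and day 2 (background 0.0128%), by edgeR as by DESeq2, and 0 had an unadjusted p under 0.05 (1.72% of all genes).

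**Figure D3:**
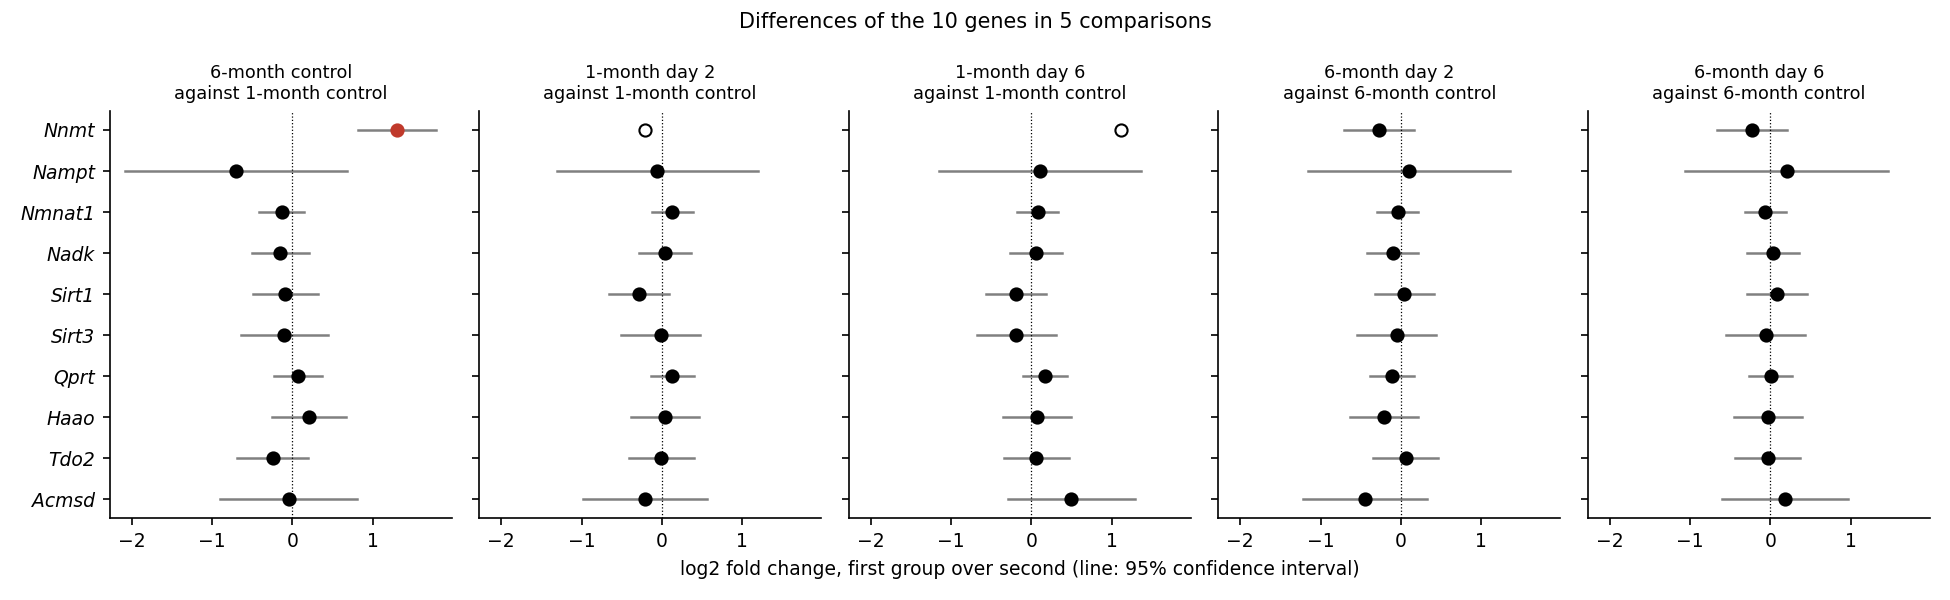
Log2 fold change (horizontal) of the 10 genes (rows) in 5 comparisons (panels), with the 95% confidence interval as a line where a test was made. The red point is the single call, Nnmt in 6-month against 1-month controls at 1.30, black points were not called, and open points are values of Nnmt without a test.

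Among the genes of the de novo route, Tdo2 was at 2035 and 2435 CPM in 1-month controls and at 1846.5 and 1934 CPM in 6-month controls. The log2 fold change of Tdo2 between the control ages was -0.24 (95% confidence interval -0.68 to 0.20). Its largest difference in either direction after DEN in the 4 comparisons with controls was 0.06 on the log2 scale. Haao, whose product is the dioxygenase that makes the precursor of quinolinate, had group means of 386 to 446 CPM, and Qprt, whose product turns quinolinate into the NAD pathway, had group means of 186 to 216 CPM. For Qprt the 95% confidence intervals of the 4 comparisons of DEN with controls together ran from -0.38 to 0.44, so that a change as large as that of Nnmt with age lies outside them.

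Acmsd, whose product diverts the de novo intermediate from NAD, was the most variable gene of this route. In 1-month-old livers it was at 20.9 and 32.9 CPM in controls, at 18.4, 15.5 and 35.9 CPM on day 2 and at 43.6, 42.5 and 28.3 CPM on day 6. In 6-month-old livers it was at 31.0 and 21.4 CPM in controls, at 17.96, 21.4 and 18.3 CPM on day 2 and at 20.3, 26.0 and 42.7 CPM on day 6. Day 6 was higher on average than day 2 at both ages, but single libraries overlapped in each case. The log2 difference of day 6 from day 2 was 0.71 in the younger mice, where it is not tested, and 0.63 in the older mice (95% confidence interval -0.07 to 1.33, edgeR adjusted p = 1.0). An antisense transcript overlaps Acmsd, and 187 counts were assigned to that transcript and 11607 to Acmsd over all libraries. As the use of strand in counting is not given, reads of that transcript inside Acmsd cannot be told apart.

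Of the enzymes downstream of nicotinamide, Nmnat1 had its lower values in the older mice, without a call. It was at 17.7 and 18.96 CPM in 1-month controls and at 16.6 and 16.95 CPM in 6-month controls. On day 2 it was at 18.7, 22.2 and 19.2 CPM in the younger and at 15.6, 16.8 and 16.5 CPM in the older mice, and on day 6 at 17.6, 19.8 and 20.7 CPM against 17.3, 15.03 and 15.8 CPM. The ages did not overlap in any of these 3 comparisons, where the groups of 43.1%, 21.3% and 20.4% of all genes tested did not overlap. The log2 difference was -0.13 in controls, -0.30 on day 2 (95% confidence interval -0.53 to -0.07, edgeR adjusted p = 0.148) and -0.27 on day 6 (-0.50 to -0.04, edgeR adjusted p = 0.227), and none was called. Among the 9 genes tested between the ages after DEN, 0 were called on day 2 (background 5.90%) and 0 on day 6 (background 4.47%), by edgeR as by DESeq2, and Nmnat1 was the 1 gene with an unadjusted p under 0.05 on each day, as were 19.1% and 15.6% of all genes. Without 1-month day 2 replicate 1, Nmnat1 was called on day 2, at -0.36 with an adjusted p of 0.0753, and over the 23 alternatives its adjusted p there ran from 0.0753 to 0.473. Nadk had group means of 255 to 266 CPM in the younger and 214 to 235 CPM in the older mice, and its log2 difference between the ages on day 2 was -0.29 (95% confidence interval -0.58 to 0.00063).

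The sirtuins Sirt1 and Sirt3 use NAD to remove acyl groups from proteins. Sirt1 was at 15.8 and 14.5 CPM in 1-month controls, at 13.8, 12.3 and 11.1 CPM on day 2 and at 15.8, 12.2 and 11.9 CPM on day 6. The day 2 libraries were below both young controls, in a comparison where 16.7% of all genes had groups without overlap, and the log2 fold change was -0.29 (95% confidence interval -0.66 to 0.08), which was not called. In 6-month-old livers Sirt1 was at 14.5 and 14.0 CPM in controls and at 13.02 to 18.7 CPM after DEN. Sirt3 was at 59.1 to 95.7 CPM over all libraries with group means of 74.3 to 84.5 CPM. Sirt3 overlaps Ric8 and Psmd13 on the opposite strand, which had 11118 and 29992 counts against 33222 for Sirt3, and as the use of strand in counting is not given, reads of these genes cannot be told apart where they overlap.

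Nampt encodes the enzyme that limits the recycling of nicotinamide, and in liver it is known as an output of the circadian clock. Its levels in 1-month-old livers were 232 and 64.0 CPM in controls, 175, 176 and 75.4 CPM on day 2, and 265, 64.2 and 151 CPM on day 6. In 6-month-old livers they were 86.5 and 95.9 CPM in controls, 126, 90.0 and 77.4 CPM on day 2, and 164, 69.6 and 81.4 CPM on day 6. Each of the 3 younger groups thus held 1 library far below the others, and all 6 groups overlapped with their neighbours in the order of means. The log2 difference between the control ages was -0.70 with a 95% confidence interval of -2.08 to 0.68, so that a difference of the size seen for Nnmt would not have stood out. Nampt overlaps the noncoding gene Gdap10 on the same strand, which had 2366 counts against 51781 for Nampt over all libraries.

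The 3 low libraries of Nampt were also those of lowest clock score. This score subtracts the average log2 CPM of 5 genes in phase with Arntl, a driver of the clock, from that of 9 genes in phase with Dbp, a clock output factor. It was -1.08 in 1-month control replicate 2, -2.07 in 1-month day 2 replicate 3 and -2.55 in 1-month day 6 replicate 2, and -0.31 to 4.91 in the other 13 libraries. These 3 libraries also had the lowest TMM factors, 0.906 to 0.926 against 0.971 to 1.10, and the lowest share of mitochondrial counts, 2.18% to 3.52% against 3.82% to 5.28%. No source used here gives the time of day at which livers were taken, and the parts of clock phase and library make-up cannot be told apart.

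In a model of the 6 groups plus the clock score, which was added after the data were seen, the slope of Nampt was 0.25 log2 units per unit of score (SE 0.0312, edgeR adjusted p = 0.000153). It stayed between 0.21 and 0.27 and was called in each of 3 repeats, with an adjusted p of 0.0991 without the 3 libraries of lowest score, 0.00536 in the 1-month libraries alone and 0.075 in the 6-month libraries alone. Slopes were called for 6 of the 9 genes other than Nnmt, where 23.8% of all genes tested were called. Besides Nampt, they were positive for Sirt3 at 0.09, Nadk at 0.04, Sirt1 at 0.05 and Tdo2 at 0.05, and negative for Acmsd at -0.11, all in log2 units per unit of score. Without the 3 lowest libraries 1 of these 9 genes, Nampt, was called (background 1.56%). The slopes of Sirt3, Sirt1, Tdo2 and Nadk were then 0.12, 0.09, 0.08 and 0.04 and that of Acmsd -0.07, with larger standard errors. Slopes of Sirt3 were called within each age, at 0.08 in the younger mice (edgeR adjusted p = 0.0313) and 0.13 in the older mice (edgeR adjusted p = 0.0916), in backgrounds of 14.3% and 5.14%. For Nmnat1 the slope was -4.05e-05 (95% confidence interval -0.03 to 0.03). The slope of Nnmt was 0.05 and is given without a test, since the libraries that Nnmt was chosen on are in the fit.

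**Figure D4:**
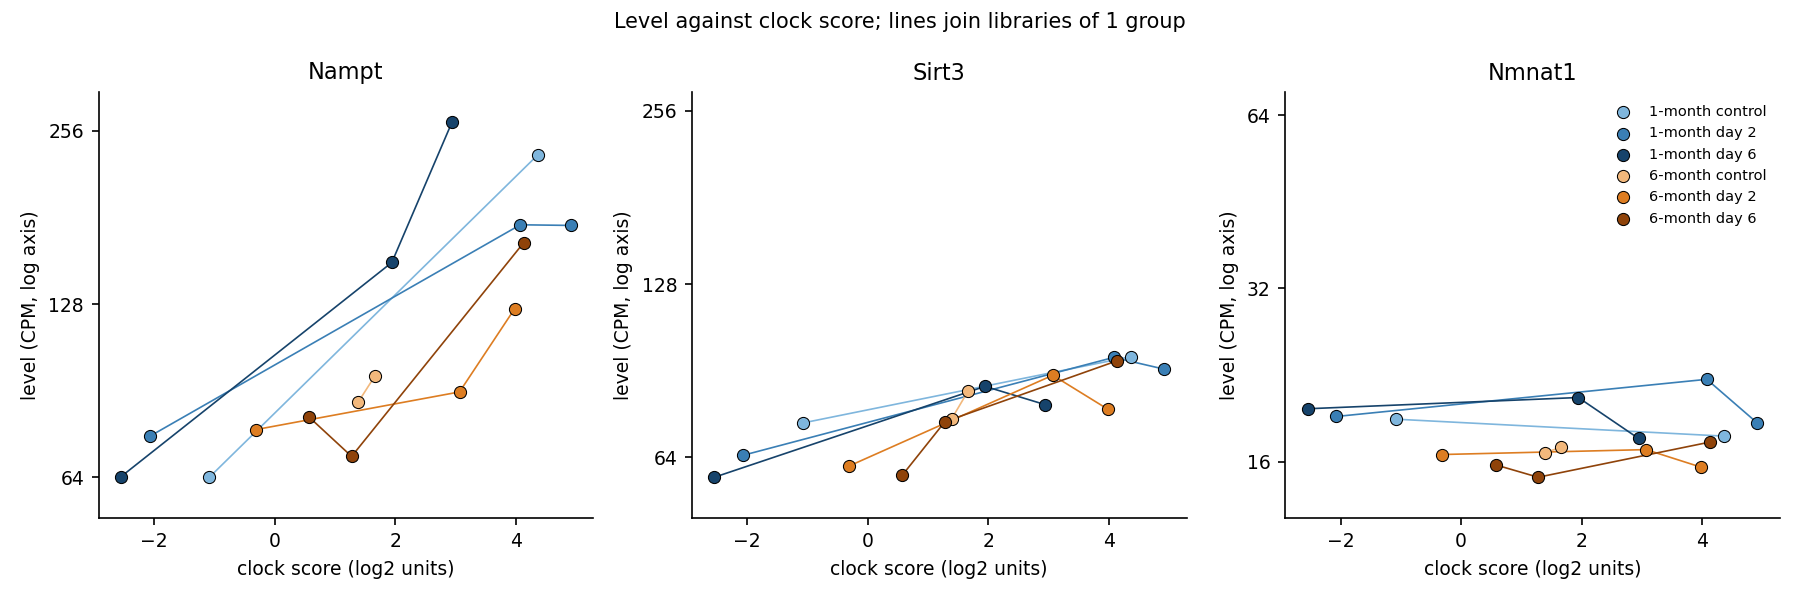
Level in CPM (vertical, log axis of equal fold span in each panel) of Nampt, Sirt3 and Nmnat1 against the clock score (horizontal, log2 units) in each library (points), with lines joining libraries of 1 group. Nampt climbs from 64.0 CPM in libraries of low score to 265 CPM, Sirt3 climbs less steeply, and Nmnat1 stays at 15.03 to 22.2 CPM.

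With the score as a covariate the standard error of Nampt between the control ages was 0.269 in place of 0.644, and the log2 difference was -0.41 (edgeR adjusted p = 0.5, 5.41% of all genes called). On day 6 the log2 difference between the ages was -0.81 with the covariate (edgeR adjusted p = 0.0554), where 8.44% of all genes were called, and -0.61 without it (edgeR adjusted p = 0.647), where Nampt was not called. In the comparisons of DEN with controls the covariate left Nampt at -0.09 to 0.40 on the log2 scale, with no call.

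The clock factors CLOCK and BMAL1 bind E-boxes with the letters CACGTG, which read the same on both strands. RefSeq promoters of GRCm38.p6, which hold 250 bases before and 50 after a start site, were matched for 9 of the 10 genes, and Nnmt had no entry. Over both strands the motif stood in 7.15% of 32851 promoters, and it stood in those of Sirt1 and, at 1 of 2 starts, of Nadk. The 250 bases before the start are shown for Sirt1, with 2 E-boxes in capitals that begin 115 and 43 bases before the start, and for Nampt, the gene of steepest slope, whose window holds none. The first is on the minus strand at chr10:63339036-63339285, the second on the plus strand at chr12:32820085-32820334. GENCODE M21 starts the Nampt gene at 32819545, upstream of this window, and no base outside the windows was searched.
Sirt1: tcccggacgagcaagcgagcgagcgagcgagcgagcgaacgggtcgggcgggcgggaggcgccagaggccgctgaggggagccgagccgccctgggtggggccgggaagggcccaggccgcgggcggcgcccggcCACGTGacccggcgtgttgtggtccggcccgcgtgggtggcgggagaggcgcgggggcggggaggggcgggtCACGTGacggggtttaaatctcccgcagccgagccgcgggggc
Nampt: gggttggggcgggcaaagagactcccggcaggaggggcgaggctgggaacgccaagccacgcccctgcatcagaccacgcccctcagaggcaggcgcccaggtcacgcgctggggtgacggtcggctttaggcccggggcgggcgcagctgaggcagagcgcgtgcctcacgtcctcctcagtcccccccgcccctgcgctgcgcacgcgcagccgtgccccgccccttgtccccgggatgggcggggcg
No other motif was searched. A match of letters is a description, and binding was not measured.

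Other genes of the pathway were taken from 7 lists. On the route of nicotinamide removal and its methyl donor cycle, 2 of 15 genes, Nnmt and Aox1, were called between 6-month and 1-month controls, both higher at 6 months, where 2.67% of all genes were called and 1.61% were called higher. The other 6 lists gave 0 calls there, of 11 genes in de novo synthesis, 9 in salvage, 5 in NADP formation and exchange, 7 sirtuins, 17 ADP-ribosyltransferases and NAD glycohydrolases and 6 transporters. DEN against controls gave 0 calls in all 7 lists, where 0.0191% of all genes were called on day 2 and 0.00% on day 6 at 1 month, and 0.319% and 0.249% at 6 months. Between the control ages the median log2 fold change was 0.07 for the methyl list, -0.04 for de novo synthesis, -0.13 for salvage, 0.05 for NADP formation and exchange, -0.17 for sirtuins, 0.08 for ADP-ribosyltransferases and NAD glycohydrolases, -0.19 for transporters and -0.01 for all genes tested.

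Aox1 encodes an aldehyde oxidase, an enzyme that oxidises the methylnicotinamide made by NNMT to pyridones. Aox1 was at 86.6 and 114 CPM in 1-month controls and at 157 and 176 CPM in 6-month controls, which was a log2 difference of 0.73 (edgeR adjusted p = 0.0881). After DEN it was at 92.5 to 136 CPM in the younger mice and at 184 to 218 CPM in the older, with no overlap on either day, as in 21.3% of all genes on day 2 and 20.4% on day 6. The log2 difference was 0.73 on day 2 (SE 0.158, edgeR adjusted p = 0.0207) and 0.77 on day 6 (SE 0.158, edgeR adjusted p = 0.022), in comparisons where 5.90% and 4.47% of all genes were called. Aox1 was the 1 gene called of the 14 tested in its list on each day. Aox3, another aldehyde oxidase gene of that list, was not called between the ages. It was at 499 to 697 CPM in 1-month controls and at 940 to 1137 CPM in 6-month controls. On day 2 the ages overlapped for Aox3, at 502 to 873 and 728 to 932 CPM. They also overlapped on day 6, at 726 to 929 and 766 to 876 CPM. Over the 23 alternatives Aox1 was called in all on days 2 and 6, and in the controls the call was lost in 9, among them each of the 4 that left out a control library, with adjusted p from 0.0185 to 0.392. In these DEN libraries hepatocyte markers summed to 63900 to 92140 CPM in the younger and 56210 to 60180 CPM in the older mice. Adipocyte markers summed to 6.39 to 21.3 and 12.99 to 32.3 CPM, and lymphocyte markers to 5.79 to 7.94 and 8.52 to 20.5 CPM. Between the ages 2 of 12 hepatocyte markers were called lower on day 2 and 1 on day 6 (background 5.90% and 4.47%). Of 9 lymphocyte markers 3 were called higher on each day. Of 11 stellate cell markers 4 were called on each day, 1 higher and 3 lower, and of 8 sinusoidal endothelium markers 1 and 2 lower. Of 4 neutrophil markers tested 1 was called higher, on day 2 only, and no marker of the other lists was called. The part of these marker lists was not tested.

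Parp3, an ADP-ribosyltransferase that responds to DNA breaks, was at 21.4, 17.8 and 27.8 CPM in the younger mice and at 41.5, 42.9 and 44.9 CPM in the older on day 2. Its log2 difference was 0.95 on day 2 (SE 0.231, edgeR adjusted p = 0.0389), 0.75 on day 6 (edgeR adjusted p = 0.113) and 0.77 in controls (edgeR adjusted p = 0.241). The ages did not overlap in any of the 3, as in 21.3%, 20.4% and 43.1% of all genes in the same order. On day 2 Parp3 was the 1 gene called of 17 in its list, where 5.90% of all genes were called. Without 1-month day 2 replicate 2 or without 6-month day 2 replicate 3 the day 2 call was lost, with adjusted p of 0.165 and 0.116. Slc3a2, a subunit of amino acid transporters that carry tryptophan, was lower in the older mice on day 2, at 38.1, 29.1 and 37.7 CPM against 39.5, 55.1 and 52.6 CPM, a log2 difference of -0.49 (SE 0.145, edgeR adjusted p = 0.0896). It was the 1 gene called of 6 transporters there, against the same 5.90%. That call was lost in 11 of 23 alternatives, with adjusted p from 0.015 to 0.294.

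**Figure D5:**
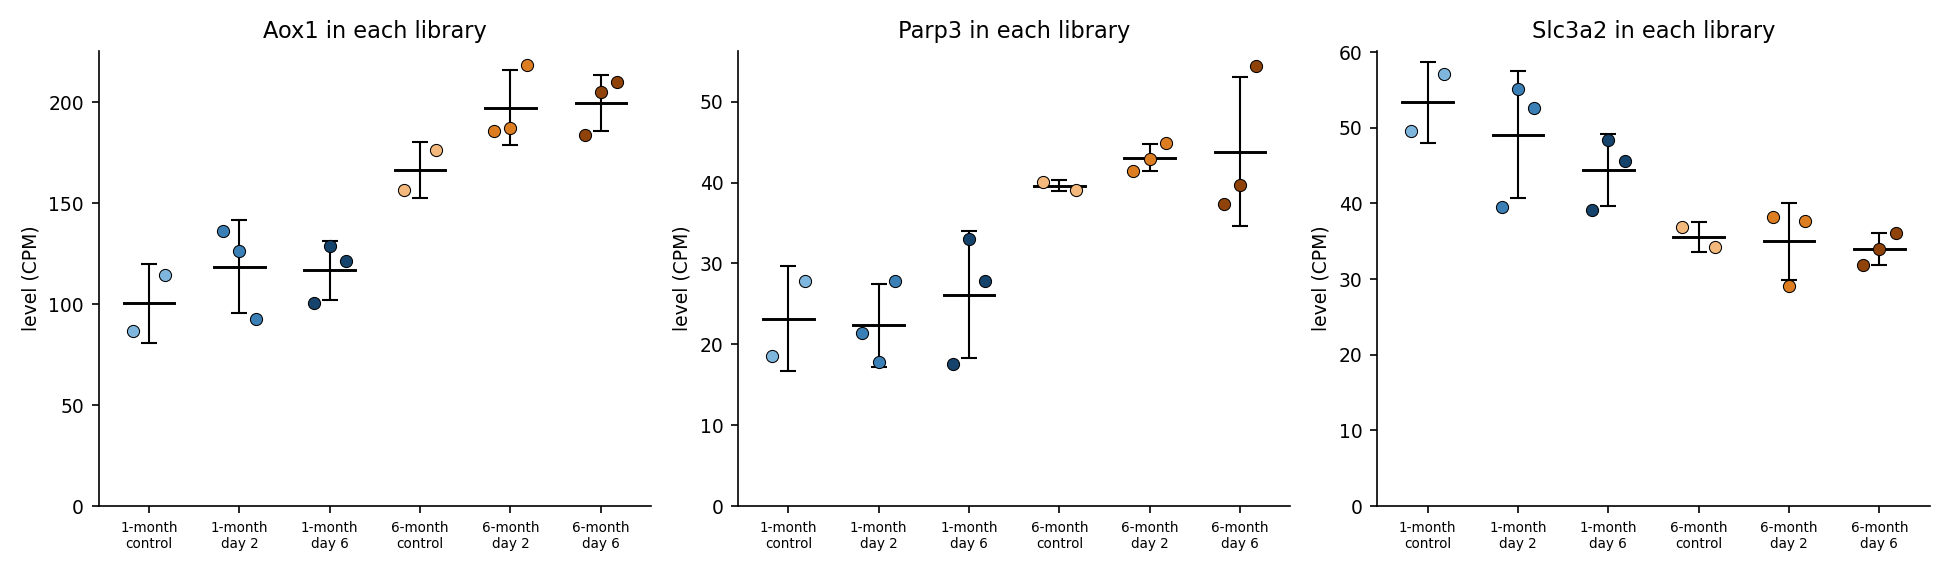
Level in CPM (vertical, from 0) of Aox1, Parp3 and Slc3a2 in each library (points) by group, with the group mean (horizontal bar) and SD (whiskers). The 3 genes are shown for a call between the ages in these libraries. Within controls, day 2 and day 6 the ages do not overlap for any of the 3, as in 43.1%, 21.3% and 20.4% of all genes tested. Aox1 and Parp3 are higher at 6 months and Slc3a2 is lower. For Slc3a2 the gap on day 2 is small, with 38.1 CPM as the highest 6-month library and 39.5 CPM as the lowest 1-month library.

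The genes whose pattern over the 16 libraries was most like that of Nnmt, by Pearson's r of log2 CPM among 11628 genes, were Hspb8, a small heat shock protein (r = 0.891), Cml5 (r = 0.89), the major urinary protein gene Mup21 (r = 0.86), the steroid 5-alpha-reductase gene Srd5a1 (r = 0.858) and the D-lactate dehydrogenase gene Ldhd (r = 0.85). Since Nnmt was chosen for its rise from day 2 to day 6 at 1 month, genes most like it tend to share that rise. Srd5a1 was at 51.3 to 79.5 CPM in 1-month control and day 2 libraries and at 107 to 130 CPM in 1-month day 6 libraries, and it was at 97.3 to 126 CPM over the 8 libraries of 6-month-old mice. Mup21, which belongs to a family of near-identical copies that may share reads, was at 12.7 to 41.95 CPM in 1-month control and day 2 libraries, at 57.4 to 93.5 CPM in 1-month day 6 libraries and at 133 to 217 CPM at 6 months. In the same order Hspb8 was at 123 to 144, 148 to 197 and 160 to 193 CPM. Ldhd was at 143 to 177, 183 to 215 and 219 to 275.5 CPM. Cml5 was at 3.91 to 8.97, 8.53 to 17.99 and 9.26 to 19.4 CPM, with overlap between these sets. For Nampt the most similar were Ipo5, an importin (r = 0.961), Coq10b, a coenzyme Q-binding protein (r = 0.96), the growth factor gene Nrg4 (r = 0.954), the liver glycogen synthase gene Gys2 (r = 0.948) and Gtf2h1, a subunit of TFIIH (r = 0.947). Gys2 was at 125 to 170 CPM in the 3 libraries of lowest clock score and at 130.0 to 452 CPM elsewhere, so that the ranges overlap. These libraries share groups, pools and scaling, and the correlations carry no p. Over deviations from the group means 0 of the 5 genes of Nnmt and 3 of the 5 of Nampt stayed among the 5 most similar.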

How the data were processed

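The 16 liver libraries were prepared with a TruSeq kit and sequenced on a NextSeq 500. According to the methods and the submitters' processing notes, reads were trimmed with cutadapt and aligned to GRCm38 by TopHat2 2.0.13, using an Ensembl annotation. The authors deposited raw counts per gene, whole numbers, and the processing notes also list Cufflinks 2.2.1 and Cuffnorm without a role. The sources used here do not say which program made the counts or whether strand was used. Their 16 columns of normalized counts and their columns of fold changes and adjusted p-values from DESeq2 1.10.1 were not used. Of 47729 genes, 10 with a missing count value in at least 1 library were left out. Counts were filtered with filterByExpr, scaled by TMM and tested in 1 model of the 6 groups with edgeR 4.0.16 in R 4.3.3 (glmQLFit, glmQLFTest, Benjamini-Hochberg over 15684 genes, threshold 0.1), after a check on simulated counts. Fold changes have a prior count of 0.125 and log2 CPM one of 2. Levels per kb use the summed exon length of GENCODE M21. Alternatives were size factors of DESeq2, no filter, DESeq2 1.42.0, the compared groups alone, a replicate block, the clock score as a covariate, and leaving out libraries. The labels do not say whether libraries of a group came from separate experiments, so p-values measure the spread between pools. Members and lists were chosen with earlier results of these data known. Named genes were the 10 members, up to 4 called genes per pathway list and comparison with the smallest p, and the 5 genes most like Nnmt or Nampt with a mean of at least 1 CPM. Same-numbered 6-month day 2 and day 6 libraries deviated together (r = 0.233 to 0.493), where differently numbered ones reached 0.223 at most. The labels do not say that same-numbered libraries are paired. No other groups deviated together in every same-numbered pair, apart from groups with only 2 shared numbers.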

Additional observations from a re-analysis of the deposited data

How the results depend on the processing

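The count of members called kept its value in 227 of 230 alternatives over the comparisons tested. It fell from 1 to 0 in 6-month against 1-month controls without 1-month control replicate 2, and over the alternatives leaving out 1 library it ran from 0 to 1. It rose from 0 to 1 (Nmnat1) between the ages on day 2 without 1-month day 2 replicate 1, again a range of 0 to 1, and from 0 to 1 (Nampt) between the ages on day 6 with the clock score as a covariate. No direction of a called value was reversed. The replicate block left the count at 1 in the control ages (log2 fold change of Nnmt 1.29, adjusted p = 0.00491 from edgeR) and at 0 in the other comparisons tested, day 6 against day 2 at 6 months included. Of the 6 slopes called on the clock score, those of Nadk, Sirt1 and Tdo2 were lost in all 3 repeats, that of Acmsd in 2 and that of Sirt3 in 1, all with the same sign as before. Leaving out a control library leaves 1 in its group, which is then assumed to vary like the others. With 2 control libraries an age, the 95% confidence interval of Nampt between the control ages ran from -2.08 to 0.68 log2 units.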
